A study of Mus musculus with 5 samples.

Results

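The replication histone genes were taken as every gene whose symbol begins with Hist1h, Hist2h, Hist3h or Hist4h and that had at least 20 UMIs over all barcodes of the 5 deposited matrices. Of the 27998 genes in the matrices, 69 have such a symbol, and 53 of these reached the minimum, with 19722 UMIs in all. They comprise 5 genes for linker histone H1, 15 for H2A, 15 for H2B, 10 for H3 and 8 for H4. Among the H2A genes, Hist1h2al is annotated as a processed pseudogene with no coding sequence in GENCODE vM21 and is counted here by its symbol. The highest genes under the minimum were Hist1h3f with 19 UMIs and Hist1h2ao with 16, and the lowest member named here just above it was Hist2h2ab with 23. By the cluster named in the symbol, 39 members belong to Hist1 on chromosome 13, 11 to Hist2 on chromosome 3, 2 to Hist3 on chromosome 11 and 1 to Hist4 on chromosome 6 of the mouse genome build GRCm38. Hist1h2al starts at base 51202727, away from the other Hist1 members, which start between 21715763 and 23763666. The symbol Hist2h2bb stands for 2 gene IDs, which count as 2 members, and 1 of them has no position in GENCODE vM21.

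The series profiled γδ T cells of mice by droplet sequencing of single cells with the Chromium 3′ v2 kit, which primes on A stretches and tags each captured transcript once with a unique molecular identifier (UMI). There was 1 library per group. The sorted populations were Vγ4 and Vγ6 cells from ear skin and Vγ6 cells from thymus and peripheral lymph nodes (pLN), all of C57BL/6 mice aged 8 weeks. The last library pooled Vγ6 cells of TcrdH2BeGFP ear skin, ACT-FLPe thymus and TcrdCreER lymph nodes from mice of 8 to 10 weeks and was not split back into tissues. The TcrdH2BeGFP strain carries a fusion of histone H2B with a green fluorescent protein, and its part in the H2B values of the pool was not tested. Preparation differed with tissue: skin was digested with collagenase IV and DNaseI, the thymus was depleted of CD4- and CD8-bearing cells with complement, and lymph node cells were only filtered. Both skin samples were incubated for 75 min and the thymus for 30 min, at 37 °C. No incubation is given for the pLN or pooled samples. Tissue and preparation therefore cannot be told apart.

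Core histones H2A, H2B, H3 and H4 form the protein spool around which DNA is wound, and linker histone H1 binds where DNA enters and leaves it. Replication histone genes are transcribed mainly while DNA is copied. Their main transcripts lack introns and end just past a short stem-loop in place of a poly-A tail; the stem-loop binding protein SLBP holds this end during processing, export and translation, and the transcripts are degraded when DNA synthesis stops. Some of these genes also make polyadenylated transcripts, which extend past the stem-loop or bypass it and which can persist in cells that do not divide. A kit that primes on A stretches captures tail-less transcripts poorly, so a UMI count for a histone gene mixes both kinds of transcript and levels of different genes do not compare their total RNA.

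The stem-loops are shown because they mark where a replication histone transcript normally ends. Each is read 5′ to 3′ on the transcript strand in DNA letters, from the GENCODE vM21 transcript models of GRCm38, with the 16 bases of stem and loop in capitals and 5 bases on each side where the model has them.
Hist1h1c: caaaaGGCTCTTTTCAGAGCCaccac
Hist1h1e: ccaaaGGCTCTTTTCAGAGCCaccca
Hist1h2ap: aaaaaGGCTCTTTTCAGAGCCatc
Hist1h2ae: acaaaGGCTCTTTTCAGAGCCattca
Hist2h2ac: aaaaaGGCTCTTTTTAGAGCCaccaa
Hist3h2a: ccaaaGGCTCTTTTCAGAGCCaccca
Hist3h2ba: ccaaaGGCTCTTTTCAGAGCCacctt
Hist1h4i: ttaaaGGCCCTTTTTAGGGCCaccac

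The sequences are near identical, whereas the transcript models continue for very different lengths past them. The model of Hist1h2ap stops 3 bases past the stem-loop and that of Hist2h2ac 57 bases past it. Within 20 bases the model of Hist1h2ap holds up to 16 A, against 14 for Hist1h1b and 11 for Hist1h1c. Whether the kit primed inside such a stretch was not tested. The model of Hist1h2ae goes on for 151 bases, that of Hist3h2ba for 169 and that of Hist1h4i for 330. The longest stretches among those shown belong to Hist1h1c with 840 bases, Hist1h1e with 1153 and Hist3h2a with 1643. Over the 53 members, 19 models extend at least 100 bases past the stem-loop, 17 stop sooner, 16 hold no stem-loop within the model, Hist1h1b and Hist1h2bc among them, and 1 member had no model in this annotation. These 16 are of more than 1 kind. The model of Hist1h1b, like several others, has 0 bases after the stop codon and cannot show a stem-loop. That of Hist1h2bc goes on for 742 bases after the stop codon. This annotation may differ from the one the authors counted with.

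Many members are near-identical copies, which leaves the split of reads among them uncertain. Windows of 90 bases along each model were compared with the models of all genes whose symbol begins with Hist1h to Hist4h. Hist1h2ap shares 92.4% of its windows with another such gene, Hist2h2aa1 88.3% and Hist1h2an 83.9%. The share is 31.9% for Hist1h2ae, 26.2% for Hist1h1e, 26.1% for Hist1h2bc, 12.5% for Hist2h2ac and 5.71% for Hist1h1c. Hist3h2a shares 0.0972% and Hist1h1b 0%, so these 2 models are almost free of windows shared with other Hist genes. Genes without such a symbol were not compared. The model of Hist1h1e also overlaps that of Hist1h2be on the same strand, and reads in the overlap cannot be assigned to either.

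The promoters of 6 members are shown because 3 of these genes, Hist1h1b, Hist1h1e and Hist1h2ae, were lower in thymus than in pLN and the other 3 were higher. Each is the 150 bases before the gene's start in RefSeq on GRCm38.p6, read 5′ to 3′ on the gene's strand, and capitals mark 4 motifs or their reverse complements. The motif CCAAT is bound by the factor NF-Y, the motif TATAAA is the core of a TATA box, the motif ATTTGCAT is the octamer known from H2B promoters, and the motif AAACACA is the box known from H1 promoters.
Hist1h1b, chr13:21780626-21780775, minus strand: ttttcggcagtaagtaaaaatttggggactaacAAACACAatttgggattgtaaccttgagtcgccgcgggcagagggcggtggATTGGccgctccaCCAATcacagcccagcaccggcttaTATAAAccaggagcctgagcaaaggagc
Hist1h1e, chr13:23622559-23622708, minus strand: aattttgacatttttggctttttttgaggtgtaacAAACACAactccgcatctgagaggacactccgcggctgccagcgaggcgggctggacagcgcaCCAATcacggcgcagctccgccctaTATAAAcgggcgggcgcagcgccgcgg
Hist1h2ae, chr13:23571221-23571370, minus strand: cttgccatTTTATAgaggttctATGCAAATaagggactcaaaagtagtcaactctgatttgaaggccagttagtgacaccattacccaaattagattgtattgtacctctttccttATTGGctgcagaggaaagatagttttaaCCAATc
Hist1h1c, chr13:23738657-23738806, plus strand: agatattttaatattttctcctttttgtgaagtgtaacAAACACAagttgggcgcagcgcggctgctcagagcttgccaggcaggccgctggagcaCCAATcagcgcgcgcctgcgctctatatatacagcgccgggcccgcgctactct
Hist3h2a, chr11:58954535-58954684, plus strand: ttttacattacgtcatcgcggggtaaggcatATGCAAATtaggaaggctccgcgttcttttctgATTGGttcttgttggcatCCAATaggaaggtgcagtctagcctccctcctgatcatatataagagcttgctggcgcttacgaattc
Hist3h2ba, chr11:58948761-58948910, plus strand: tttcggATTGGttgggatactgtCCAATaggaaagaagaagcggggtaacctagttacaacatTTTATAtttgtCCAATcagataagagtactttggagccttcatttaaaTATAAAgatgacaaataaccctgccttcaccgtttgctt

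RefSeq promoters were matched for 46 of the 53 members. On either strand, CCAAT stood in 39 of these 46 windows (84.8%), against 24.5% of all 32851 mouse promoters of the same length. TATAAA stood in 41.3% of the member promoters, against 7.57% of all promoters. ATTTGCAT was found in 19.6% of the member promoters and 0.998% of all promoters. AAACACA, searched after the sequences had been read, was found in 6 member promoters (13.04%), 4 of them among the 5 H1 promoters, and in 3.53% of all promoters. All 5 H1, all 13 matched H2A and all 12 matched H2B promoters held CCAAT, as did 7 of 9 H3 and 2 of 7 H4 promoters. Windows of some neighbouring genes on opposite strands overlap, so the same bases can count for both genes. Those of Hist1h2ae and Hist1h2bg are a case, and the TTTATA and ATGCAAAT marked for Hist1h2ae are the TATAAA and ATTTGCAT of Hist1h2bg. These are matches of letters only.

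Barcodes with at least 200 genes and at most 10% mitochondrial UMIs were retained. Levels are given as CPM, the UMIs of a gene per 1000000 UMIs summed over these cells of a library. The sums held 1178 skin Vγ4, 687 skin Vγ6, 2517 thymus, 1458 pLN and 2006 pooled cells, and 793463 UMIs in skin Vγ6 to 6607432 in thymus. Any pair of libraries shared 0 to 9 barcodes. All 4 CD3 complex genes were detected in each library, with a summed level of 1737 to 4954 CPM. All 10 markers of IL-17-type γδ T cells were also detected in each. They summed to 949.7 CPM in thymus, far below the 3399 to 5134 CPM of the other libraries, which limits each comparison with thymus. Markers of αβ T cells and thymocytes summed to 158.6 CPM in thymus and to 8.28 to 33.4 CPM in the other libraries, where Rag1 and Rag2 had no UMI. Keratinocyte markers reached 1224 CPM in skin Vγ4, against 261 CPM in skin Vγ6 and 59.9 to 128 CPM elsewhere. Neutrophil markers summed to 213 CPM in skin Vγ4, with none detected in skin Vγ6 and at most 1.35 CPM elsewhere. Mast cell markers summed to 136 CPM in thymus, against 1.19 CPM in pLN and 3.78 to 30.7 CPM in the rest. Fcer1a, Cma1 and Tpsb2 were at 0 in each library. In thymus Mcpt4 was at 0 too, so only Cpa3 and Kit of the 6 genes made up the sum. B cell markers summed to 111 CPM in pLN, 72.95 CPM in the pool, 21.6 CPM in thymus and at most 2.52 CPM in skin. Myeloid antigen-presentation markers ranged from 251 CPM in skin Vγ4 to 1872 CPM in pLN. Whether the markers of other cell types came from such cells, and the part of these cells in the histone values, was not tested.

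Summed over the 53 members, histone transcripts were most abundant in pLN Vγ6 cells and least abundant in skin. They reached 582 CPM in skin Vγ4, 471 in skin Vγ6, 1199 in thymus, 1998 in pLN and 597 in the pool. With exact Poisson 95% intervals, which cover counting error only here and below, pLN lay between 1955 and 2041 CPM and thymus between 1172 and 1225 CPM. Both skin libraries and the pool lay far below these, between 471 and 597 CPM. In such sums, fewer cells of a kind and less RNA per cell cannot be told apart. Counted by cell, Hist1h1b had a UMI in 23.7% of pLN and 9.5% of thymus cells, with at most 63 and 9 UMIs in a cell. Hist1h2ap had a UMI in 16.9% of pLN and 20.2% of thymus cells, with at most 74 and 35. These counts also depend on the depth of the cells, and the part of each was not tested.

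The makeup of the histone transcripts differed between libraries as well. H1 genes held 9.69% of the members' UMIs in skin Vγ4, 6.95% in skin Vγ6, 20.6% in thymus, 37.6% in pLN and 21.5% in the pool. H2A genes held the largest share in each library, between 39.1% in the pool and 56.9% in thymus. H2B genes held 22.7% in skin Vγ4, 18.4% in skin Vγ6, 15.4% in thymus, 4.67% in pLN and 19.6% in the pool. In pLN, H1 was thus at its highest share and H2B at its lowest. H3 genes held 1.57% to 7.64% and H4 genes 5.40% to 18.7%, both lower in thymus and pLN than in the other 3 libraries.

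A few genes carried most of this signal. The 5 highest members held 73.3% of the members' UMIs in pLN and 68.5% in thymus, but 50.8% in skin Vγ4, 51.1% in skin Vγ6 and 34.6% in the pool. The leading gene was Hist1h2bc in skin Vγ4 (14.1%), Hist1h2ap in skin Vγ6 (20.9%) and thymus (30.5%), Hist1h1b in pLN (26.05%) and Hist1h1c in the pool (9.95%). Each library other than skin Vγ6 and thymus was thus led by a gene of its own.

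**Figure D1:**
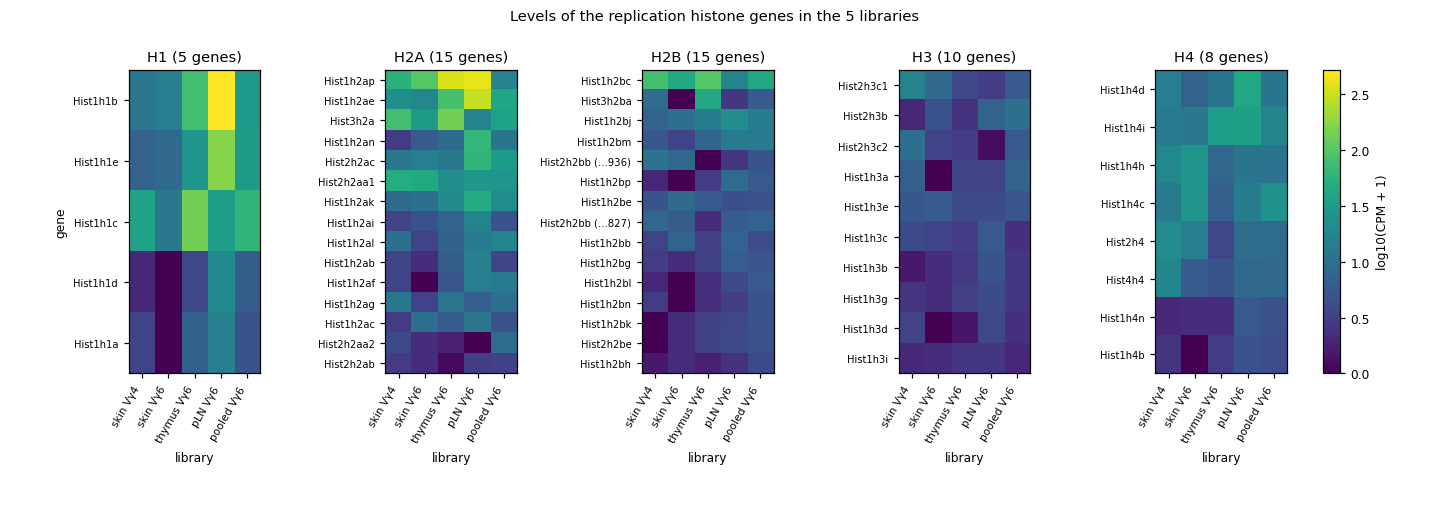
Levels of the 53 replication histone genes in the 5 libraries, as log10(CPM + 1) in colour, with genes down the page grouped by histone type and libraries across. Hist1h1b and Hist1h2ap are brightest in pLN and thymus, and Hist3h2a, Hist1h1c and Hist1h2bc are brighter in thymus than in pLN.

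Among the linker histones, Hist1h1b, which encodes H1 of the subtype named H1f5 in RefSeq, had 10.9, 13.9, 77.9, 520.4 and 28.4 CPM in skin Vγ4, skin Vγ6, thymus, pLN and the pool. Hist1h1e, a widely expressed somatic H1, had 6.21, 7.56, 24.8, 168 and 31.1 CPM in the same libraries. Both were highest in pLN by a wide margin. Hist1h1c, another somatic H1, showed a different order, with 35.7, 11.3, 135.0, 32.1 and 59.4 CPM, and was highest in thymus. Hist1h1d and Hist1h1a stayed below these, at 17.6 and 14.2 CPM in pLN, and neither had a UMI in skin Vγ6, where 3 UMIs would be 3.78 CPM.

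The H2A genes also fell into several orders. Hist1h2ap had 52.8, 98.3, 365, 411 and 15.2 CPM in skin Vγ4, skin Vγ6, thymus, pLN and the pool, and Hist1h2ae had 21.7, 17.6, 83.4, 304 and 38.5 CPM. Hist1h2ap was similarly high in thymus and pLN and lowest in the pool, while Hist1h2ae was highest in pLN. Hist1h2an had 2.07, 5.04, 7.72, 62.0 and 10.5 CPM and Hist2h2ac 10.9, 13.9, 11.4, 60.1 and 30.1 CPM, both highest in pLN. Hist3h2a, from the small Hist3 cluster, had 77.6, 29.0, 137, 15.9 and 36.8 CPM and was lowest in pLN.

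Hist1h2bc was the only H2B gene to reach 50 CPM, with 82.2, 44.1, 100.2, 15.9 and 40.9 CPM in skin Vγ4, skin Vγ6, thymus, pLN and the pool. Hist3h2ba, the neighbour of Hist3h2a, chosen after its values were seen, had 8.28 CPM in skin Vγ4, no UMI in skin Vγ6, 43.1 CPM in thymus, 1.66 CPM in pLN and 5.07 CPM in the pool. Hist1h2bc, Hist3h2ba and Hist3h2a were all highest in thymus and lowest, or next to lowest, in pLN. No H3 or H4 gene reached 50 CPM in any library. The other 44 members had medians of 2.52 to 5.34 CPM per library and highest values of 24.99 to 47.6 CPM, and 0 to 10 of the 53 members had no UMI, the most in skin Vγ6.

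The first comparison asked how Vγ6 cells of the skin differ from those of the lymph node. A gene counted as called where it reached 20 CPM in either library, its CPM differed at least 2-fold and the exact conditional binomial 95% interval of the ratio left out 1. With 1 library per group this describes the libraries and has no replicate check. Of the 53 members, 16 reached 20 CPM in either library; 11 were called lower and 2 higher in skin. Over all 5770 genes at that level, 30.4% were lower and 16.0% higher. Because the CPM minimum keeps low members only where they are high in one library, the shares were also taken without it. Then 35.8% of all 53 members were lower in skin against 17.5% of 13763 genes, and 7.55% were higher against 10.5%. The members had to reach 20 UMIs over all barcodes, whereas the other genes did not. Genes with very few UMIs can hardly be called, which lowers the shares of all genes. The shares without the CPM minimum are therefore not like for like, here and in the comparisons below.

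The H1 genes showed the widest gap between skin and pLN. Hist1h1b was 37.5-fold lower in skin Vγ6 than in pLN (20.9 to 75.3) and Hist1h1e 22.2-fold lower (10.2 to 60.7). H1 genes together had 32.8 CPM in skin and 752 CPM in pLN, 23.0-fold lower in skin (15.6 to 35.2). Of the H2A genes, Hist1h2ae was 17.2-fold lower (10.2 to 31.6), Hist1h2an 12.3-fold lower (4.75 to 45.5), Hist2h2ac 4.33-fold lower (2.38 to 8.79) and Hist1h2ap 4.18-fold lower (3.33 to 5.31). Hist1h1c was 2.83-fold lower (1.45 to 6.32), a much smaller gap than those of Hist1h1b and Hist1h1e. Also called lower were Hist1h2ak, Hist1h2bj, Hist1h4d and Hist1h4i, by 2.34-fold to 6.48-fold.

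Hist1h2bc went the other way, 2.77-fold higher in skin (1.79 to 4.23). So did Hist1h4h, an H4 gene, which had 25.2 CPM in skin and 10.2 CPM in pLN. H2B genes as a group had 87.0 CPM in skin and 93.3 CPM in pLN, and the interval of their ratio, 0.711 to 1.21, included 1. Scaling set the direction of many genes in this comparison: the median log2 ratio of all genes tested was −0.38 by CPM and −0.01 with TMM factors, and TMM gave 1258 genes higher and 1233 lower where CPM gave 922 and 1756. The directions of the members named here were unchanged by TMM and median-of-ratios factors. Within cell classes defined below, Hist1h1b was 11.2-fold lower in skin DNA-synthesis cells (3.10 to 92.7, with 2 UMIs in skin) and 9.15-fold lower in skin G2/M cells (4.63 to 21.2). Hist1h2ap had 553 CPM in skin G2/M cells and 527 CPM in pLN G2/M cells, a ratio of 1.05 (0.797 to 1.36).

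The second comparison set thymic Vγ6 cells, from the organ in which they develop, against those of pLN. The histone sum was 1.67-fold lower in thymus (1.62 to 1.72), and members of a type lay on both sides. Of the 53 members, 15 reached 20 CPM; 4 were called higher and 7 lower in thymus, where 11.8% of 5703 genes were higher and 11.3% lower. Without the CPM minimum, 9.43% of all 53 members were higher against 11.7% of 15211 genes, and 50.9% were lower against 9.88%. Only the members were held to a minimum of UMIs, so these shares are not like for like.

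Higher in thymus were Hist3h2ba, 25.9-fold (12.4 to 65.1, with 7 UMIs in pLN), Hist3h2a, 8.63-fold (6.73 to 11.2), Hist1h2bc, 6.30-fold (4.89 to 8.22), and Hist1h1c, 4.21-fold (3.51 to 5.08). Both Hist3 genes together had 180 CPM in thymus and 17.6 CPM in pLN. Lower in thymus were Hist1h2an, 8.03-fold (5.93 to 11.1), Hist1h1e, 6.77-fold (5.70 to 8.07), Hist1h1b, 6.68-fold (6.06 to 7.36), and Hist2h2ac, 5.29-fold (4.08 to 6.94). Hist1h4d, Hist1h2ae and Hist1h2ak were lower by 3.91-fold, 3.64-fold and 2.51-fold. Hist1h1c and Hist1h1b, linker histones of the same cluster, therefore lay on opposite sides. Hist1h2ap had a ratio of 0.889 (0.835 to 0.946), under the 2-fold limit.

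By the class rule given below, 29.2% of thymus and 30.0% of pLN cells were DNA-synthesis cells, and 27.2% and 35.3% were G2/M cells. Thymus cells were deeper, with median UMIs of 2156 against 1775.5. With cells thinned to 1000 UMIs, 353 of 2442 thymus and 285 of 1458 pLN cells were DNA-synthesis cells, and 323 and 384 were G2/M cells. The DNA-synthesis list summed to 2215 CPM in thymus and 3877 CPM in pLN, and the G2/M list to 2108 and 4696 CPM. Cycling was thus not matched between these libraries. The gene-by-gene split was also seen inside each class. In DNA-synthesis cells Hist1h1b had 124.5 CPM in thymus and 608 CPM in pLN, and it was 4.89-fold, 7.26-fold and 4.72-fold lower in thymus in DNA-synthesis, G2/M and other cells. Hist1h1e was 6.53-fold, 5.84-fold and 5.21-fold lower in the same classes. Hist3h2a was 11.6-fold, 7.03-fold and 7.51-fold higher, Hist1h2bc 7.42-fold, 6.17-fold and 5.86-fold higher, and Hist1h1c 3.88-fold, 3.43-fold and 7.08-fold higher. For these 5 genes the class of the cells thus changed the size of the gap but not its side.

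Other members did change with class. Hist1h2ae was 2.86-fold lower in thymus in DNA-synthesis cells and 3.72-fold lower in G2/M cells, but had 12.8 CPM in other cells of thymus and 3.86 CPM in those of pLN, which rest on 26 and 3 UMIs. Hist1h2ap had thymus to pLN ratios of 1.21 (1.11 to 1.32) in DNA-synthesis cells, 0.803 (0.730 to 0.882) in G2/M cells and 3.84 (1.94 to 8.67) in other cells. All 53 members together were 1.48-fold lower in thymus in DNA-synthesis cells and 1.86-fold lower in G2/M cells, but 2.17-fold higher in other cells (1.88 to 2.50), with 646 CPM in thymus and 298 CPM in pLN. In other cells this direction rested on the 4 members called higher in thymus, which summed to 460.2 CPM in thymus and 60.4 CPM in pLN. The other 49 members, a set chosen after the values were seen, had 186 CPM in thymus and 238 CPM in pLN, 1.28-fold lower in thymus (1.07 to 1.53).

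**Figure D2:**
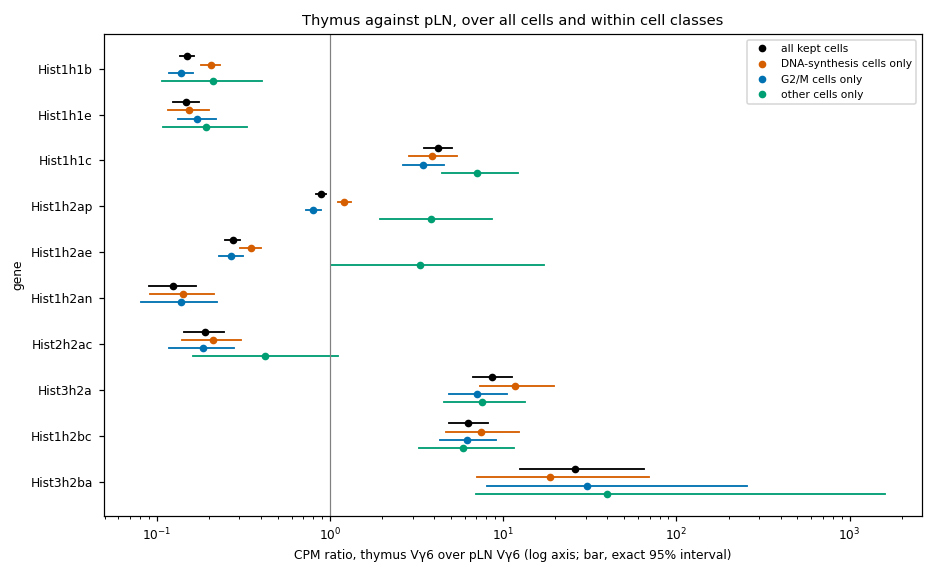
CPM ratio of thymus Vγ6 over pLN Vγ6 on a log axis for the 9 members with at least 50 CPM and Hist3h2ba, over all kept cells and within DNA-synthesis, G2/M and other cells; bars are exact 95% intervals for counting error, and a ratio is left out where a library has no UMI. Hist1h1b and Hist1h1e lie left of 1 in every class, and Hist1h1c, Hist3h2a and Hist1h2bc lie right of it.

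The third comparison, skin against thymic Vγ6 cells, gave 3 members higher and 9 lower in skin among 12 that reached 20 CPM, against 13.7% of 5656 genes higher and 24.5% lower. Without the minimum, 9.43% of all 53 members were higher against 8.85% of 14813 genes and 20.8% were lower against 14.2%. As above, only the members were held to a minimum of UMIs. Hist1h1c was 11.9-fold lower in skin (6.24 to 26.1), Hist1h1b 5.62-fold lower (3.12 to 11.3), Hist3h2a 4.74-fold lower (3.14 to 7.51) and Hist1h2ap 3.71-fold lower (2.96 to 4.71). Hist3h2ba, with no UMI in skin, was at least 11.4-fold lower, taking 3 UMIs as the floor of the skin library. Hist1h2ae, Hist1h1e, Hist1h4i and Hist1h2bc were lower by 4.73-fold, 3.28-fold, 2.80-fold and 2.27-fold, the last of these no longer 2-fold under TMM scaling (log2 ratio −0.96). Within classes some of these directions turned. In G2/M cells, Hist1h2ap had 553 CPM in skin and 423 CPM in thymus. In DNA-synthesis cells, Hist1h2bc had 136 CPM in skin and 84.3 CPM in thymus, and Hist1h1e 27.1 and 26.7 CPM, on 5 UMIs and 1 UMI in skin. The intervals of all 3 ratios included 1.

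Higher in skin than in thymus were 3 members outside the naming rule, picked after their values were seen. Hist1h4c and Hist1h4h, both H4 genes, had 25.2 CPM each in skin, against 5.60 and 6.81 CPM in thymus, which is 4.501-fold higher (2.48 to 7.96) and 3.70-fold higher (2.07 to 6.40). Hist2h2aa1 had 44.1 CPM in skin and 21.0 CPM in thymus, a ratio of 2.10 (1.40 to 3.06). Each of the 3 had its highest level in a skin library, although Hist1h4c also reached 23.3 CPM in the pool. Here too the median of all genes moved with scaling, −0.26 by CPM and −0.02 with TMM, where 1009 genes were higher and 1025 lower against 773 and 1385 by CPM.

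The fourth comparison set Vγ4 against Vγ6 cells of skin. Of 8 members at 20 CPM or more, 2 were called higher and 1 lower in Vγ4 cells, where 4.26% of 4973 genes were higher and 3.18% lower. Without the minimum, 11.3% of all 53 members were higher against 2.94% of 13481 genes, and 3.77% were lower against 2.58%. Here too only the members were held to a minimum of UMIs, so these shares are not like for like. Hist1h1c was 3.15-fold higher in Vγ4 cells (1.57 to 7.17) and Hist3h2a 2.68-fold higher (1.72 to 4.35). Hist1h4c was 2.12-fold lower (1.10 to 4.03), with 11.9 CPM in Vγ4 cells and 25.2 CPM in Vγ6 cells, a call that was lost under TMM scaling, in cells with a CD3 gene UMI and with the mean over cells. All members together were 1.23-fold higher in Vγ4 cells (1.097 to 1.39). By type the ratios were 1.72 for H1 (1.11 to 2.75), 1.52 for H2B (1.16 to 2.01) and 1.76 for H3 (1.08 to 3.03). For H2A and H4 the ratios were 1.07 (0.905 to 1.28) and 1.06 (0.801 to 1.42), and both intervals included 1. The Hist3 genes together were 2.96-fold higher (1.91 to 4.80). TMM moved the split of all genes to 278 higher and 129 lower, against 212 and 158 by CPM.

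To set the histone genes against the cell cycle itself, cells were classed by non-histone genes within each library. A cell with at least 3 UMIs over 32 DNA-synthesis genes or 38 G2/M genes went to the list with more UMIs, and the rest were called other cells. DNA-synthesis cells made up 6.11% of skin Vγ4, 2.91% of skin Vγ6, 29.2% of thymus, 30.0% of pLN and 11.8% of pooled cells, and G2/M cells 14.9%, 9.75%, 27.2%, 35.3% and 8.67%. The skin Vγ6 library held only 20 DNA-synthesis cells. Classed cells were also deeper, with median UMIs of 1769.5 to 2934.5 in DNA-synthesis cells, 1395 to 2436.5 in G2/M cells and 1016.5 to 1766 in other cells. UMIs were summed by library and class and tested with edgeR's quasi-likelihood test, with library as a block and Benjamini-Hochberg adjustment over 11203 genes. All 53 members were among these. The libraries serve as replicates of the class contrast and come from different tissues, so these p-values measure its spread across them.

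Most Hist1 genes were higher in cycling cells. Against other cells, 29 of the 53 members were higher in DNA-synthesis cells and 2 lower, where 7.82% of all genes were higher and 9.18% lower. In G2/M cells 31 members were higher and none lower, against 4.76% and 4.55% of all genes; 1 member was lower at an unadjusted p under 0.05, and DESeq2 also called 0. With cells thinned to 1000 UMIs each, which evens out depth, 17 and 19 members were higher. Without TMM factors the split of all genes moved to 1138 higher and 735 lower in DNA-synthesis cells, against 876 and 1028 with them, and to 682 and 318 in G2/M cells, against 533 and 510. Hist1h2bp and 26 other members were higher in both contrasts, and 18 were called in neither. The median log2 fold change of the members was 1.86 in both contrasts, against −0.10 and −0.08 for all genes.

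Summed over the members, DNA-synthesis cells had 705 to 2227 CPM and other cells 298 to 646 CPM, so the ranges over the 5 libraries did not overlap. Of the members' UMIs, other cells held 2.76% in pLN and 16.5% in thymus, where they held 18.5% and 30.7% of the UMIs of all genes. In skin Vγ4, skin Vγ6 and the pool, other cells held 54.0%, 52.1% and 42.9% of the members' UMIs, against 69.3%, 81.2% and 69.3% of all UMIs. In pLN, histone transcripts were thus almost wholly in classed cells, while in skin most of them lay outside.

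By type, 4 of 5 H1 genes were higher in DNA-synthesis cells. Hist1h1b had 31.0, 54.2, 124.5, 608 and 72.7 CPM in DNA-synthesis cells of skin Vγ4, skin Vγ6, thymus, pLN and the pool, against 0.747, 1.55, 7.90, 37.3 and 0.487 CPM in other cells. It was higher in DNA-synthesis cells of all 5 libraries, by 4.31 on the log2 scale (SE 0.24, adjusted p = 4.58e-21, edgeR). Hist1h1e was higher by 1.44 (SE 0.20, edgeR adjusted p = 1.71e-07), and its other cells had 10.4 CPM in thymus, 54.0 CPM in pLN and 22.4 CPM in the pool. Hist1h1a and Hist1h1d were higher by 3.57 and 2.61, each also in G2/M cells.

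Hist1h1c did not follow them. It had 20.7, 0, 108, 27.9 and 53.6 CPM in DNA-synthesis cells of skin Vγ4, skin Vγ6, thymus, pLN and the pool, and 41.8, 10.9, 164, 23.1 and 55.1 CPM in other cells. Its log2 fold change was −0.43 (SE 0.19, adjusted p = 0.116, edgeR) in DNA-synthesis cells and 0.02 (adjusted p = 0.969) in G2/M cells. The H1 gene with the highest level in thymus thus showed no class difference that passed the test.

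Of the 15 H2A genes, 11 were higher in DNA-synthesis cells and 10 in G2/M cells. Hist1h2ap had 145, 298, 576, 476 and 36.4 CPM in DNA-synthesis cells of skin Vγ4, skin Vγ6, thymus, pLN and the pool, and 11.2, 7.76, 44.4, 11.6 and 0 CPM in other cells, a log2 difference of 4.09 (SE 0.24, adjusted p = 1.01e-20, edgeR). Hist1h2ae, with 67.2, 27.1, 121, 346 and 80.4 CPM in DNA-synthesis cells, had 2.99, 3.10, 12.8, 3.86 and 6.34 CPM in other cells, and its 2 classes did not overlap over the 5 libraries. Its log2 fold change was 4.01 (SE 0.26, edgeR adjusted p = 5.48e-19). Hist1h2ag and Hist1h2an had higher fold changes still, 4.85 and 4.84, from much lower levels. Hist1h2ab, Hist1h2ac, Hist1h2af, Hist1h2ai, Hist1h2ak, Hist1h2al and Hist2h2ac were also higher, by 1.32 to 3.40.

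The 2 members that were lower in DNA-synthesis cells are both H2A genes. Hist3h2a had 77.6, 0, 126, 10.8 and 13.4 CPM in DNA-synthesis cells of skin Vγ4, skin Vγ6, thymus, pLN and the pool, and 82.1, 34.1, 155, 20.6 and 40.0 CPM in other cells. It was lower in every library, with a log2 fold change of −0.61 (SE 0.20, adjusted p = 0.0232, edgeR), but the ranges of the classes overlap. Hist2h2aa1 had a log2 fold change of −0.73 (SE 0.23, edgeR adjusted p = 0.0193) in 4 of 5 libraries. Both calls are fragile. That of Hist3h2a was lost when pLN or the pool was left out (edgeR adjusted p = 0.0813 and 0.116), and that of Hist2h2aa1 when pLN, skin Vγ4 or thymus was (0.0542, 0.0805 and 0.178).

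Of the 15 H2B genes, 8 were higher in DNA-synthesis cells: Hist1h2bb, Hist1h2bg, Hist1h2bj, Hist1h2bk, Hist1h2bl, Hist1h2bm, Hist1h2bn and Hist1h2bp. They were also higher in G2/M cells. Hist1h2bc, the highest H2B gene, had 51.7, 136, 84.3, 11.4 and 30.6 CPM in DNA-synthesis cells of skin Vγ4, skin Vγ6, thymus, pLN and the pool, 137, 35.7, 129, 20.9 and 72.4 CPM in G2/M cells, and 70.2, 40.3, 90.4, 15.4 and 37.5 CPM in other cells. It was the only member called between the cycling classes, −0.78 in DNA-synthesis against G2/M cells (SE 0.19, adjusted p = 0.00981, edgeR), where 1.08% of all genes were higher and 0.928% lower. That call was lost when skin Vγ4, thymus, pLN or the pool was left out, with adjusted p between 0.0502 and 0.0614. In G2/M cells Hist1h2bc was higher than in other cells by 0.57 (SE 0.17, edgeR adjusted p = 0.0222), which did not hold without skin Vγ4, thymus or the pool (adjusted p = 0.0767, 0.0634 and 0.0928).

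Of the 10 H3 genes, Hist1h3c, Hist1h3g and Hist1h3i were higher in DNA-synthesis cells, and Hist1h3a, Hist1h3b and Hist1h3e joined them in G2/M cells. Of the 8 H4 genes, Hist1h4b, Hist1h4d and Hist1h4i were higher in DNA-synthesis cells, and Hist1h4d and Hist1h4i in G2/M cells. Hist1h4c and Hist1h4h, which were higher in skin than in thymus, had log2 fold changes of −0.32 and 0.29 in DNA-synthesis cells, with adjusted p of 0.552 and 0.625 (edgeR). H3 genes had the lowest summed level of the types in each library, 20.6 to 44.5 CPM.

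**Figure D3:**
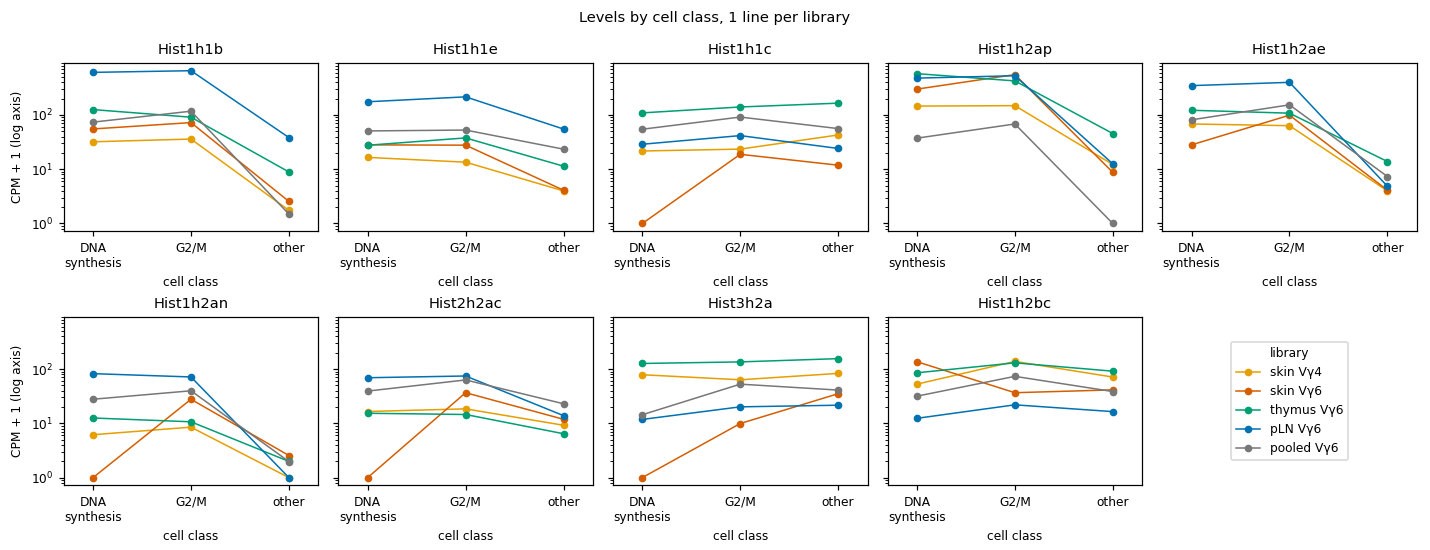
Level of the 9 members with at least 50 CPM in DNA-synthesis, G2/M and other cells, as CPM + 1 on a log axis, with 1 line per library. In pLN, Hist1h1b, Hist1h2ap and Hist1h2ae stand at 608, 476 and 346 CPM in DNA-synthesis cells and at 37.3, 11.6 and 3.86 CPM in other cells, while Hist3h2a and Hist1h1c stand at 10.8 and 27.9 CPM in DNA-synthesis cells and at 20.6 and 23.1 CPM in other cells; the skin Vγ6 line of both starts at 0 CPM.

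Calls were also counted by gene cluster. In Hist1, 28 of 39 members were higher in DNA-synthesis cells and 30 in G2/M cells. In Hist2, 1 of 11 was, Hist2h2ac in both contrasts (1.32 and 1.504), and neither Hist3 gene nor the Hist4 gene was higher in either. The medians of the log2 fold change in DNA-synthesis cells were 2.39 over Hist1 and −0.63 over Hist2. Whether the clusters differ was not tested.

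The end of the transcript model was set beside the same calls. Of the 19 members whose model extends at least 100 bases past the stem-loop, 7 were higher in DNA-synthesis cells, with a median log2 fold change of 1.15. Of the 17 with a shorter extension 11 were higher (median 2.33), and of the 16 with no stem-loop in the model 11 were (median 2.48). The last group mixes models cut at the stop codon with models that run on, so it is not a class of transcript ends. Hist1h1c, Hist3h2a and Hist3h2ba, the members shown above with stretches of 840, 1643 and 169 bases, were not among those higher in cycling cells, whereas Hist1h1e, Hist1h4i and Hist1h2ae with 1153, 330 and 151 bases were. Among the promoters, some of which overlap, CCAAT stood in 25 of 27 of the members higher in DNA-synthesis cells and in 14 of 19 of the others. TATAAA stood in 14 of 27 and 5 of 19, a description with no test.

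**Figure D4:**
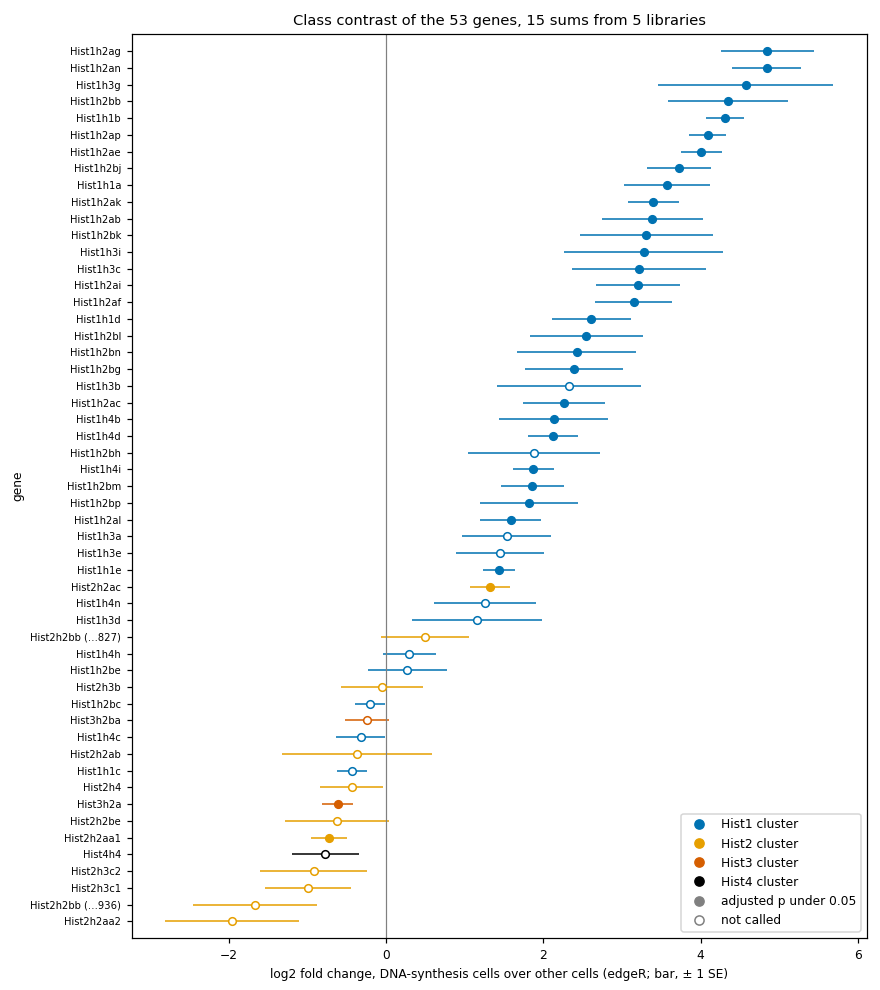
Log2 fold change in DNA-synthesis cells over other cells for the 53 members, with bars for 1 SE, coloured by gene cluster and filled where the adjusted p was under 0.05 (edgeR, 5 libraries). Filled points right of 0 are nearly all Hist1 genes, and the 2 filled points left of 0 are Hist3h2a and Hist2h2aa1.

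Genes that act on histones or replace them were followed from lists of replacement histones, histone mRNA processing factors and histone chaperones. The processing list also holds the cell cycle regulators E2f1, Cdk2, Ccne1 and Ccne2. Replacement histones can also be made outside DNA replication, mainly from ordinary polyadenylated transcripts. In skin against pLN, 8 of the 10 genes reached 20 CPM, and 4 of these were lower and none higher, where 30.4% of all genes were lower. The 4 were H1f0 (26.5 against 182 CPM), H2afx (64.3 against 210 CPM), H2afv and H2afy. In thymus against pLN, H3f3b, one of the genes for H3.3, was 2.753-fold higher (7410 against 2692 CPM), and H1f0, the replacement linker histone, 3.35-fold lower (54.3 against 182 CPM). No other of the 8 genes at 20 CPM was called there, where 11.8% of all genes were higher and 11.3% lower. H1f0 thus lay on the same side as Hist1h1b and Hist1h1e. Between skin Vγ4 and Vγ6 cells no gene of the 3 lists was called, where only 4.26% of all genes were higher and 3.18% lower. With 8 replacement histones, 8 processing genes and 12 chaperones at 20 CPM, few calls could arise at these shares.

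Of the 16 processing genes, 12 reached 20 CPM in skin or pLN, and 7 of these were lower in skin and none higher, again beside 30.4% of all genes lower, with Slbp at 299 CPM in skin, 500 CPM in thymus and 743 CPM in pLN. In thymus against pLN only the cyclin genes Ccne1 and Ccne2 and the gene Eri1 were called, all lower. They were 3 of 12 processing genes at 20 CPM, beside 11.3% of all genes lower. Of the 16 chaperones, 14 reached 20 CPM in skin or pLN and 9 were lower in skin, beside 30.4% of all genes. Among the 9 was Asf1b, 7.76-fold lower (5.22 to 12.04). Asf1b alone of 14 was called between thymus and pLN, 3.15-fold lower, beside 11.3% of all genes. In skin against thymus, 4 of 8 replacement histones, 2 of 10 processing genes and 6 of 13 chaperones at 20 CPM or more were lower and none higher, where 24.5% of all genes were lower.

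In the class test, 7 of 15 processing genes tested were higher in DNA-synthesis than in other cells and 4 in G2/M cells. Of all genes, 7.82% and 4.76% were higher. The cell cycle regulators E2f1, Ccne2 and Cdk2 were among both, and Ccne1 was among the 7. Slbp was higher by 1.15 in DNA-synthesis cells (SE 0.13, adjusted p = 3.62e-10, edgeR), by 0.53 in G2/M cells (adjusted p = 0.00295), and by 0.62 in DNA-synthesis over G2/M cells (adjusted p = 0.00171). Of the chaperones, 11 of 16 were higher in DNA-synthesis cells and 6 in G2/M cells, and of the replacement histones 6 of 9 and 3 of 9. H2afx, the H2A variant that is phosphorylated at DNA breaks, was lower in DNA-synthesis than in G2/M cells, with a log2 fold change of −1.02 (SE 0.19, edgeR adjusted p = 0.000317). Between these classes 5 genes of the processing list were higher in DNA-synthesis cells, beside 1.08% of all genes. They were Slbp and the cell cycle regulators E2f1, Ccne1, Ccne2 and Cdk2. Of the 53 replication histone genes 0 were higher, also at an unadjusted p under 0.05 and with DESeq2.

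The authors' deposited table of mean expression in 8 Vγ6 clusters, named Skin, Thy_1 to Thy_5, pLN_1 and pLN_2, offers a second view, in parts per 10000 and with no cells or error behind each mean. It comes from the same series and is no separate check of the libraries. It lists 47 of the replication histone genes. In the authors' deposited table their sum was 3.85 in Skin, 11.6 in Thy_1, 3.33 in Thy_2, 4.69 in Thy_3, 5.92 in Thy_4, 20.005 in Thy_5, 2.97 in pLN_1 and 30.4 in pLN_2. The 70 genes used to class cells summed to 16.4, 34.4, 15.6, 18.6, 27.9, 71.4, 23.5 and 134 in the same clusters of that table. Histone genes were thus concentrated in pLN_2 and Thy_5, the clusters with the most cell cycle transcripts.

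The clusters also differed in makeup. In the authors' deposited table, H1 genes summed to 13.3 in pLN_2 and 4.13 in Thy_5, whereas H2B genes summed to 1.42 in pLN_2 and 3.97 in Thy_5. Hist1h1b had 9.30 in pLN_2, 1.955 in Thy_5 and 0.501 in Thy_1 of the authors' deposited table, while Hist1h2ap had 5.19, 5.69 and 2.20. The 4 genes higher in thymus than in pLN above, Hist1h1c, Hist1h2bc, Hist3h2a and Hist3h2ba, summed there to 6.41 in Thy_1 and 7.64 in Thy_5, against 0.591 in pLN_1 and 1.03 in pLN_2. Because they were chosen by that difference in the same series, this side of their sums follows from the choice. These 4 genes had their highest sum in Thy_5, where Hist1h1b was second to pLN_2, and their sum in pLN_2, where Hist1h1b was highest, lay below that of each thymus cluster.

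The authors' deposited table of marker genes gives natural log fold changes of each cluster against the other cells, with p-values taken over cells, which are not replicates. It lists 38 members with a positive and 2 with a negative value in pLN_2, against 36.0% and 11.7% of 10721 genes, and the negative ones are Hist3h2a (−0.57) and Hist3h2ba (−0.24). For Thy_5 the authors' deposited table lists 17 members as positive and none as negative, against 24.2% and 2.69% of genes, and for Thy_1 7 and 5, against 27.6% and 12.0%. In Thy_1 of that table Hist3h2a had 0.80, Hist1h1c 0.73 and Hist1h2bc 0.60. For pLN_1, Skin and Thy_2 the authors' deposited table lists 26, 16 and 18 members as negative, against 29.8%, 40.0% and 14.6% of genes, and 0, 1 and 0 as positive, against 10.4%, 7.12% and 7.50%. For Thy_4 it lists 3 as positive and none as negative, against 4.58% and 2.41%, and for Thy_3 none in either direction, against 10.1% and 2.66%.

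**Figure D5:**
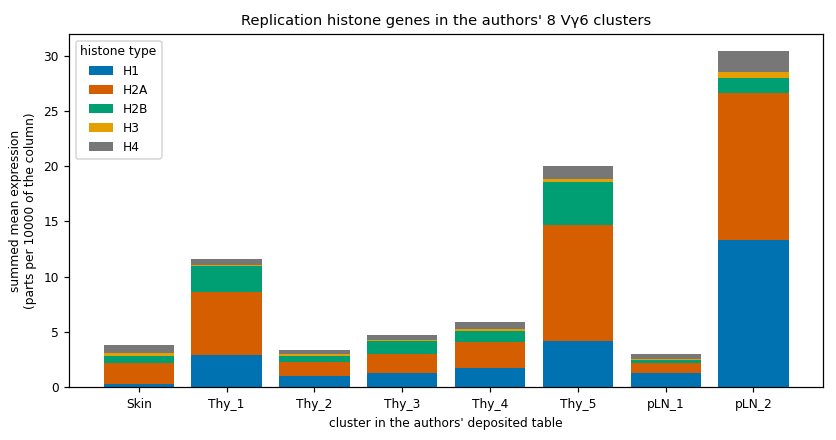
Sum of the replication histone genes by type in the 8 clusters of the authors' deposited table of means, in parts per 10000, as stacked bars without error. pLN_2 reaches 30.4 and Thy_5 20.005, and the H1 part is 13.3 in pLN_2 and 4.13 in Thy_5.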

How the data were processed

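The series measured mRNA of sorted mouse γδ T cells in 5 droplet libraries, 1 per group, grouped by the labels. The authors deposited raw UMI counts per gene and cell barcode with no normalization, and 2 tables for 8 clusters of Vγ6 cells. In the first, per its values, the score of a gene is the authors' mean expression in a cluster, scaled so that each column sums to 10000. In the second, the natural log fold changes and p-values were computed by the authors over cells of a cluster against other cells, per the file headers. Cell Ranger 2.0, Seurat 2.3 and the build mm10 are named in the submitters' processing notes, with no role given; the cluster method is not given in the sources used here.

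Barcodes with at least 200 genes and at most 10% mitochondrial UMIs were kept, no doublets were removed, and UMIs were summed by library or by library and class (at least 10 cells per sum). Ratios of CPM carry exact conditional binomial 95% intervals and CPM exact Poisson intervals, which cover counting error only; a count of 0 was bounded by 3 UMIs. Class sums were tested with edgeR 4.0.16 (quasi-likelihood, TMM, library as block) in R 4.3.3; DESeq2 1.42.0 was an alternative. The scripts were tested on simulated data. Members with at least 50 CPM in a library are named with all values, and in the class test every member that passed; the lists of replacement histones, processing genes and chaperones are named by at most 6 genes. Alternatives were other cell filters, thinning to 1000 UMIs, other scalings, CPM minimums and class minimums, and leaving out each library; values within classes were added after seeing the data. The members and gene lists were chosen with earlier results of these data known. Stem-loops came from GENCODE vM21 models and promoters from RefSeq, matched by Ensembl ID or symbol.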

Additional observations from a re-analysis of the deposited data

Results flagged for a closer look

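The H2A genes of the pLN library stood apart in the class contrast. Their summed level in DNA-synthesis cells over other cells gave a log2 ratio of 3.681 in pLN, farther from the nearest other library than the 5% level of Dixon's test allows for 5 values. Such ratios were checked in 10 groups of 5 libraries, and chance marks about 1 in 20. Other cells of pLN had 87.4 CPM of H2A transcripts and their DNA-synthesis cells 1133 CPM, the lowest and the highest such level of the 5 libraries.

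The 16 histone genes left out by the minimum of 20 UMIs held 132 UMIs over all barcodes, and 3 of them had none.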

How the results depend on the processing

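The counts of members called between libraries moved with the cells and the CPM minimum used. For skin Vγ6 against pLN (2 higher, 11 lower), TMM and median-of-ratios factors gave 5 higher, no CPM minimum gave 4 higher and 19 lower, a minimum of 100 CPM gave 0 and 4, and leaving out cycling cells gave 2 lower. DNA-synthesis cells alone gave 1 higher and 3 lower, and so did G2/M cells alone. For thymus against pLN (4 higher, 7 lower), the number lower was 2 without cycling cells, 27 without a minimum and 3 at 100 CPM, and the number higher stayed within 1.5 times of 4 under every alternative. For skin Vγ6 against thymus (3 higher, 9 lower), leaving out cycling cells gave 5 lower, no minimum 5 higher, 100 CPM 0 higher and 4 lower, DNA-synthesis cells alone 0 and 2, and G2/M cells alone 4 lower. For skin Vγ4 against skin Vγ6 (2 higher, 1 lower), no minimum gave 6 higher and 2 lower, while 100 CPM and DNA-synthesis cells alone gave 0 of each. The number lower was 2 with 500 genes per cell, with thinned cells and with G2/M cells alone, and 0 with cells that had a CD3 gene UMI, TMM factors and the mean over cells. The values within DNA-synthesis or G2/M cells were added after seeing the data. A higher or lower CPM minimum tests fewer or more genes by construction; for the other alternatives the cause was not tested.

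Directions turned for 5 values of named genes. On the log2 scale, Hist1h2ap in G2/M cells was 0.068 in skin Vγ6 against pLN and 0.39 in skin Vγ6 against thymus, Hist1h2ae without cycling cells was 1.73 in thymus against pLN, and Hist1h1e and Hist1h2bc in DNA-synthesis cells were 0.025 and 0.68 in skin Vγ6 against thymus. The cause was not tested. The histone sum of thymus against pLN was also taken without the 4 members called higher in thymus, chosen after seeing the data. Its log2 ratio was then −1.30 over all cells, −0.93 in DNA-synthesis cells and −1.41 in G2/M cells, against −0.74, −0.57 and −0.90 with them, and it turned to −0.35 in other cells, against 1.12 with them. Of the other values of named genes called in thymus against pLN, 99 kept their side and their call over the alternatives and 3 lost the call; in skin Vγ6 against pLN these were 85 and 14, and in skin Vγ6 against thymus 70 and 16.

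In the class test, members higher in DNA-synthesis cells numbered 29, against 12 without the library block and 17 with thinned cells, and 31 in G2/M cells, against 18 and 19. The 2 lower members became 0 with DESeq2, without the block and with thinned cells, and 1 without TMM factors, with a class minimum of 2 or 5 UMIs and without the cells with most UMIs. Leaving out each library gave 0 to 2 lower, with 0 without pLN and 1 without the pool, skin Vγ4 or thymus. The 1 member lower in DNA-synthesis than in G2/M cells became 0 without the block, with thinned cells and without the cells with most UMIs, and 0 to 1 when each library was left out, with 1 without skin Vγ6 alone. Requiring 100 UMIs would leave 28 of the 53 members. No paired analysis was possible because each group has 1 library, so the groups share no pair of replicates beyond the library block of the class test.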

Other observations

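The pooled library, which entered no comparison, had the lowest Hist1h2ap level of the 5 libraries, 15.2 CPM, against 52.8 to 411 CPM in the others. In its DNA-synthesis and G2/M cells Hist1h2ap stood at 36.4 and 67.2 CPM, while in the other 4 libraries it was 145 to 576 and 147 to 553 CPM. Hist1h2ae did not share this pattern, with 38.5 CPM in the pool between the 17.6 CPM of skin Vγ6 and the 304 CPM of pLN.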
